A study of Mus musculus with 12 samples.

Results

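The genes of the 5 respiratory chain complexes were followed across 12 microarrays of mouse skeletal muscle. Members were all genes whose platform symbol begins with Nduf followed by a, b, c, s or v (complex I), Sdha to Sdhd (complex II), Uqcr (complex III), Cox4 to Cox8 (complex IV) or Atp5 (complex V). They made up 94 of 18193 named genes and 185 of 45101 probe sets, a probe set being the group of short probes that measures 1 transcript. Of these, 82 encode subunits: 36 of complex I, 4 of complex II, 8 of complex III, 17 of complex IV and 17 of complex V. The other 12, Ndufaf1 to Ndufaf8 and Sdhaf1 to Sdhaf4, are assembly factors whose names begin alike, and they were described apart from the subunits. A further 10 probe sets carried several such symbols and were not assigned to any gene. Each gene was read from its probe set with the highest mean. A filter on low values kept 80 of the 82 subunits and all 12 assembly factors. The 2 subunits that did not pass, Cox6b2 and Cox7b2, had signals from 13 to 79 and from 2 to 48 over the 12 arrays.

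The respiratory chain sits in the inner mitochondrial membrane. Complex I takes electrons from NADH and complex II takes them from succinate. Complex III passes them on to cytochrome c and complex IV passes them to oxygen. Complexes I, III and IV pump protons, and complex V, the ATP synthase, lets the protons flow back to make ATP. Most subunits are encoded in the nucleus and a few in mitochondrial DNA. Oxidative muscle fibres hold more mitochondria than fast glycolytic fibres, and several complex IV subunits have a separate form in striated muscle.

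The study asked how the transcription factors STAT5a and STAT5b, which act downstream of the growth hormone receptor, shape skeletal muscle. There were 4 groups of 3 arrays: wild-type mice (WT), mice lacking Stat5a and Stat5b (KO), and both genotypes given growth hormone (WT+GH and KO+GH). The labels name no Cre line, promoter, hormone dose, duration, sex or age, and blood cells are named as the site of the deletion whereas the series title speaks of muscle. Animals with and without GH carry titles in different numbering styles. Arrays within a group are numbered 1 to 3 here in the order of deposit. The values were MAS5 signals, a linear fluorescence intensity per probe set scaled to the same trimmed mean of 500 on every array. Titles give each array its own animal number, and nothing else says how the animals were housed or processed, so that p-values measure the spread between these arrays.

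The deleted genes checked the labels. Stat5b read 2820 ± 162 in WT (signal, SD, n = 3), 428 ± 63.7 in KO, 1794 ± 101 in WT+GH and 362 ± 25.2 in KO+GH. Stat5a read 627 ± 90.5, 255 ± 97.5, 402 ± 29.7 and 162 ± 33.5 in the same order. Fast muscle markers such as Ckm and Acta1 lay at a median percentile of 100 among all genes, and cardiac and red cell markers at percentiles of 26.2 and 17.9. Markers of other cells in the muscle piece were also bright: white adipocyte markers lay at 90.9, endothelium at 73.7 and macrophage at 73.2. Slow muscle markers lay at 87.3 and brown adipocyte markers at 46.9. The chain's subunits were themselves among the brightest genes, at a median percentile of 99.2, and their assembly factors at 86.6.

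Some array-wide values differed between the animals with GH and those without it. Spiked-in bacterial transcripts had a geometric mean signal of 129 to 168 on the 6 arrays without GH and of 442 to 467 on the 6 with GH. The ratio of actin's 3′ to 5′ control signal was 0.805 to 0.864 without GH and 0.887 to 1.01 with GH. The signal that the brightest 0.1% of probe sets exceeded, near that of the brightest subunits, was 40290 to 48270 without GH and 33760 to 37390 with GH, except for 44780 on WT+GH array 1, which lay within the range without GH. In every comparison of animals with and without GH, the hormone and these differences between the arrays cannot be told apart. In whole muscle, fewer mitochondria-rich cells and less RNA per cell cannot be told apart either.

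Many subunits lay on the same side of their group on the same arrays. The mean over the 80 subunits, in log2 units of signal + 25, was 14.035 ± 0.151 (SD, n = 3) in WT, 14.093 ± 0.058 in KO, 13.946 ± 0.136 in WT+GH and 13.870 ± 0.022 in KO+GH. In WT array 1, 71 of 80 subunits lay below the mean of the other WT arrays, with a median difference of -0.25, while in WT array 2, 74 lay above, with a median difference of 0.16. In WT+GH array 1, 72 subunits lay above the other arrays of that group, with a median difference of 0.26, and in WT+GH array 2, 77 lay below, with a median difference of -0.21. In KO array 3, 60 lay above, with a median difference of 0.13. Over all 12654 genes kept, the median difference of WT array 1 was 0.06, but its low values were not limited to the subunits. Of the 12 assembly factors 9 lay below there, with a median difference of -0.22. The 99th percentile of its signals was 14970, against 16720 and 16760 in the other WT arrays.

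Complex II did not share the low values of WT array 1. There the 4 complex II genes had a median difference of 0.01, with 2 above and 2 below, against -0.29 for complex I, -0.24 for complex III and -0.21 for both complexes IV and V. The KO+GH arrays were the most alike: the median SD of the 80 subunits was 0.04 in KO+GH, 0.12 in KO and 0.16 in both WT and WT+GH. Over all genes kept it was 0.10, 0.17, 0.18 and 0.13 in the same order of groups, so the small spread of KO+GH was not limited to the chain.

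**Figure D1:**
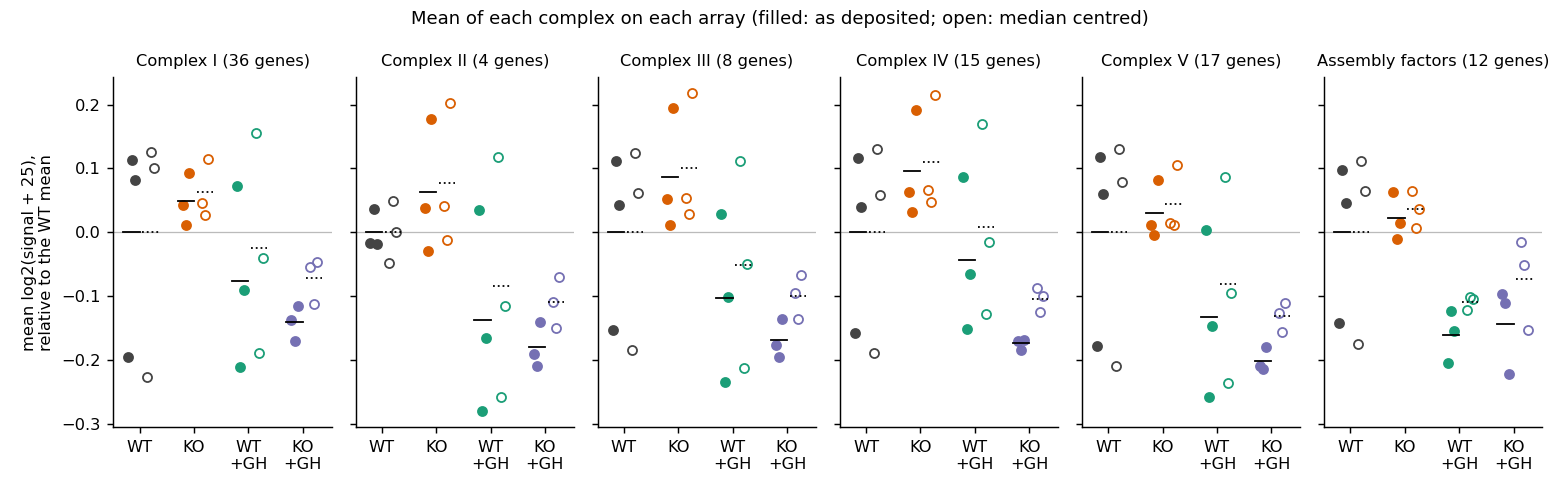
Mean log2(signal + 25) of the subunits of each complex and of the assembly factors on each of the 12 arrays, shown relative to the mean of the WT arrays, with points for arrays and bars for group means. The KO+GH arrays lie close together below the KO arrays in every complex, while the WT and WT+GH arrays each span 0.24 to 0.31 log2 units in complexes I, III, IV and V. Filled points and solid bars are the values as deposited, and open points and dotted bars those after median centring.

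Without GH, loss of Stat5a and Stat5b left no respiratory chain subunit past the threshold of an adjusted p of 0.05. Of 80 subunits, limma called 0 higher and 0 lower, against 0.774% of all genes higher and 0.68% lower. Only Cox7c, a small complex IV subunit, had an unadjusted p under 0.05. The median log2 difference, KO minus WT, was 0.04 over the subunits, with 61 of 80 above 0, and 0.06 after each array was centred on its own median. The medians were 0.04 for complexes I, II, IV and V and 0.07 for III, and a single subunit had a median standard error of 0.10. The groups did not overlap for 1 subunit that was lower and 4 that were higher, against 7.03% and 6.2% of all genes. With WT array 1 and KO array 3 left out together, the medians of complexes IV and V were -0.06 and -0.09.

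The subunit with the smallest p in each complex gives the size of what was seen. Ndufs8, an iron-sulphur subunit of complex I, differed by 0.20 ± 0.102 (log2, standard error; limma adjusted p = 0.475), and Sdhd, a membrane anchor of complex II, by 0.20 ± 0.115 (adjusted p = 0.561). Uqcr11 of complex III differed by 0.19 ± 0.118 (adjusted p = 0.606). Cox7c had signals of 72.8, 55.5 and 75.9 in WT and of 108, 105 and 100 in KO, a difference of 0.48 ± 0.203 (adjusted p = 0.358). Its groups did not overlap, and all of its signals were dim. Atp5md, a small membrane subunit of the ATP synthase, had the most negative value, -0.41 ± 0.27 (adjusted p = 0.633), with a signal of 10038 in KO array 3 against 24142 and 20558 in the other KO arrays.

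Slow fibre genes moved in this comparison: of a list of 12, 6 rose in KO without GH, against 0.774% of all genes. With GH in WT 6 of the 12 rose as well, against 7.33% of all genes, and WT is the baseline of both comparisons. With GH in KO 2 of the 12 fell, against 15.4% of all genes. The mean log2 signal of 6 slow skeletal muscle markers ran from 8.96 to 11.2 in WT, from 12.16 to 12.51 in KO, from 11.55 to 11.58 in WT+GH and from 12.08 to 12.11 in KO+GH. How many slow fibres each muscle piece held, and its part in the subunit values, was not tested.

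With GH in both genotypes, the subunits again gave no call. limma called 0 of 80 higher and 0 lower, and 0 had an unadjusted p under 0.05, against 2.42% of all genes called higher and 2.11% lower. Here the median, KO+GH minus WT+GH, was -0.09, with 66 of 80 subunits below 0, and -0.08 after centring. The medians were -0.08 for complex I, -0.07 for II, -0.09 for III, -0.13 for IV and -0.10 for V, and 0.03 for the assembly factors. The groups did not overlap for 7 subunits that were lower and 3 that were higher, while 16.3% of all genes lay lower and 13.8% higher without overlap.

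The smallest p in each complex again belonged to small differences. Ndufs5, a supernumerary subunit of complex I, differed by -0.18 ± 0.0962 (limma adjusted p = 0.384) and Sdhb, the iron-sulphur subunit of complex II, by -0.15 ± 0.11 (adjusted p = 0.573). Uqcrfs1, the Rieske iron-sulphur protein of complex III, differed by -0.13 ± 0.0877 (adjusted p = 0.506). Cox5a, a nuclear subunit of complex IV, differed by -0.20 ± 0.11 (adjusted p = 0.404) and Atp5b, the catalytic beta subunit of the ATP synthase, by -0.17 ± 0.0916 (adjusted p = 0.396). WT+GH array 1, which lay above the others for 72 subunits, entered each of these values.

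With GH in wild-type mice 4 subunits fell and 1 rose. Of 80 subunits 5% fell, against 11.8% of all genes, and 1 rose, against 7.33% of all genes. The median, WT+GH minus WT, was -0.11 (66 of 80 below 0), while the median of all genes kept was -0.06. After centring it was -0.05 over the subunits and 0.00 over all genes. Then 2 of the 4 remained lower and 1 subunit higher, against 8.67% and 8.8% of all genes. By complex the medians were -0.06 for I, -0.13 for II, -0.09 for III, -0.11 for IV and -0.12 for V. The median turned to 0.02 in complex II when all probe sets were averaged, and to 0.03 in complex IV after quantile normalization. The groups did not overlap for 4 subunits that were lower and 1 that was higher, against 21% and 13.3% of all genes.

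Cox7a2l, a relative of the complex IV subunit Cox7a that links complexes III and IV into supercomplexes, had signals of 7424, 6772 and 7249 in WT and of 6169, 4847 and 4933 in WT+GH. The groups did not overlap, and it fell by 0.43 ± 0.0943 (log2; limma adjusted p = 0.00516). Sdhc, a membrane anchor of complex II, had 16690, 20506 and 19142 in WT and 14656, 14400 and 14944 in WT+GH, and it fell by 0.35 ± 0.0884 (adjusted p = 0.0123). The other bright probe sets of Cox7a2l had -0.16 and 0.02, and that of Sdhc had 0.49, opposite in sign to the brightest. Ndufa8, a subunit of complex I in the intermembrane space, had 18329, 21801 and 20611 in WT and 18106, 15695 and 16738 in WT+GH. Each WT+GH array lay below each WT array, and Ndufa8 fell by 0.26 ± 0.0787 (adjusted p = 0.0295). Ndufa4, named after complex I and now counted as part of complex IV, fell by 0.31 ± 0.093 (adjusted p = 0.0295), with overlapping groups. Both Ndufa genes were read by a single bright probe set.

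Cox7c was the 1 subunit that rose, from 72.8, 55.5 and 75.9 in WT to 129, 136 and 124 in WT+GH, by 0.74 ± 0.203 (log2; limma adjusted p = 0.0198). The groups did not overlap, and its probe set stayed dim in all 12 arrays, with 136 as the highest signal. Cox7c passed under 16 of 21 alternatives, with changes from 0.01 to 0.89. After quantile normalization 3 other subunits were called higher and Cox7c was not. The median signal of all probe sets was also higher with GH, at 97.6 to 102 in WT+GH against 80.6 to 87.3 in WT. In the complexes without a call, Uqcrh, the hinge protein of complex III, differed by -0.29 ± 0.137 (adjusted p = 0.161) and Atp5l, subunit g of the ATP synthase, by -0.25 ± 0.0878 (adjusted p = 0.0599). The count of 4 depended on single arrays: 16 subunits were lower without WT array 1, 11 without WT+GH array 1, and 1 without WT array 2. No share of all genes is given for these fits.

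GH in mice lacking Stat5a and Stat5b went with lower levels over all 5 complexes. Of 80 subunits 32 fell, or 40%, against 15.4% of all genes, and limma called 0 higher, against 8.93% of all genes, with 0 positive changes at an unadjusted p under 0.05. The median, KO+GH minus KO, was -0.26 on the log2 scale, a change of -16.3%, and 69 of 80 subunits were below 0. All genes kept had a median of -0.06. In 61 subunits every KO+GH array lay below every KO array, which was so for 27.9% of all genes. Only Ndufa2 and Ndufb4, named after their values were seen, lay wholly above, at 0.15 and 0.28, and neither passed the threshold. The Ndufb4 signals were near the filter, from 39.3 to 76.2, and brighter probe sets shared with its copies had -0.10 and -0.31.

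By complex, as assigned by symbol, the counts and medians were as follows, with Ndufa4 counted under complex I. Complex I had 12 of 36 lower (median -0.25), complex II 2 of 4 (-0.30), complex III 3 of 8 (-0.26), complex IV 7 of 15 (-0.27) and complex V 8 of 17 (-0.28). After each array was centred on its median, 7 of 80 subunits remained lower and 0 were higher. That share was smaller than the 10.8% of all genes that were lower after the same step, when 10.7% were higher. The 7 were Ndufa4, Ndufa8 and Ndufb9 of complex I, Uqcrq of complex III, and Cox6a1, Cox6c and Cox7a2l of complex IV. The centred medians were -0.19, -0.24, -0.21, -0.22 and -0.23 for complexes I to V, and -0.01 for all genes.

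**Figure D2:**
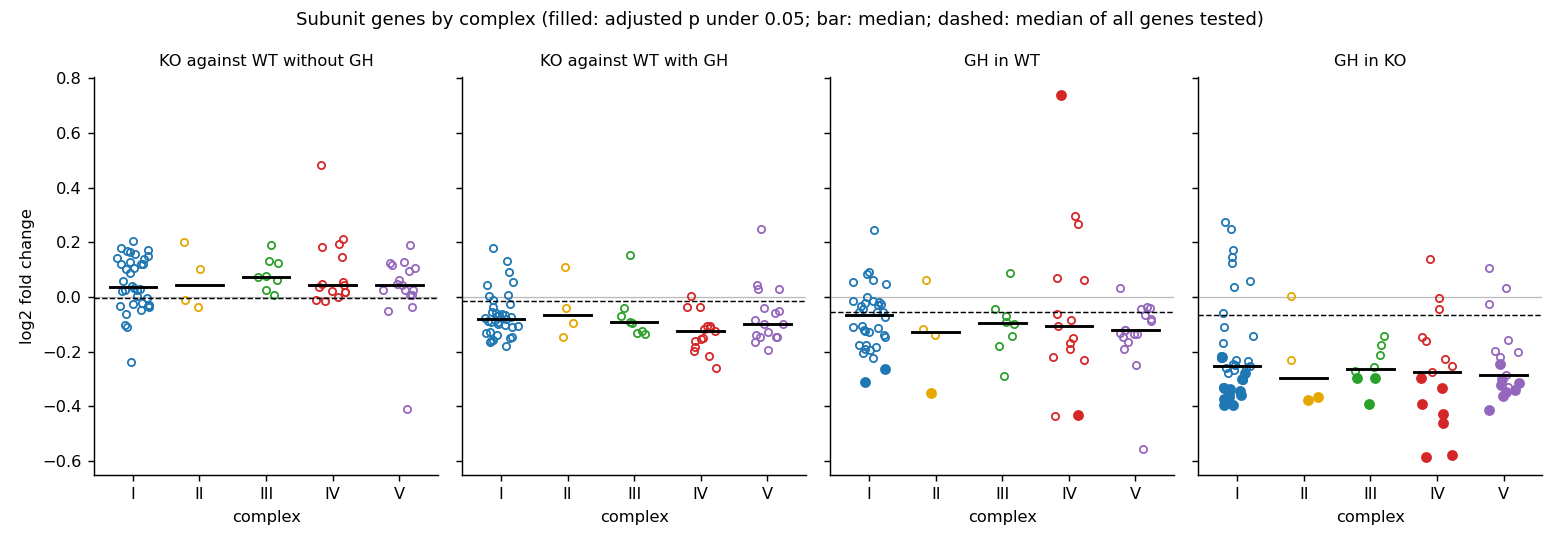
Log2 fold change of every subunit kept (points) by complex in each comparison, with the median of the complex as a bar and the median of all genes kept as a line. With GH in KO the medians of the 5 complexes lie between -0.25 and -0.30, below the -0.06 of all genes, and in the other comparisons they lie nearer to 0.

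Other bright genes were lower as well. Among genes with a mean log2 level above 14, the 61 subunits had a median of -0.27 with GH in KO, and the 188 other genes had a median of -0.21, with 35.1% of them lower. Between 13 and 14 the 11 subunits had a median of -0.28 and the 308 other genes -0.11, with 26.3% lower. Of 12 fast skeletal muscle markers, whose median signal was 51800 against 22170 for the subunits, 9 fell and 1 rose, with a median of -0.43. Their summed signal ran from 573300 to 737500 in KO and from 479900 to 505100 in KO+GH. Of all genes 15.4% fell and 8.93% rose with GH in KO, and markers of other cells were read beside the same shares. Of 6 macrophage markers 5 fell and 1 rose, with a summed signal of 8504 to 12020 in KO and 6712 to 7035 in KO+GH. Of 6 endothelium markers 3 fell and 1 rose, with overlapping sums of 5140 to 5500 in KO and 5151 to 5736 in KO+GH. Of 4 white adipocyte markers 2 fell, with sums of 38200 to 63840 in KO and 33620 to 36520 in KO+GH. Of 6 brown adipocyte markers, from a tissue rich in mitochondria, 1 fell, near the share of all genes. Their sums overlapped, at 5874 to 13560 in KO and 5779 to 5912 in KO+GH. The part of these cells and of signal level in the fall of the subunits was not tested.

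**Figure D3:**
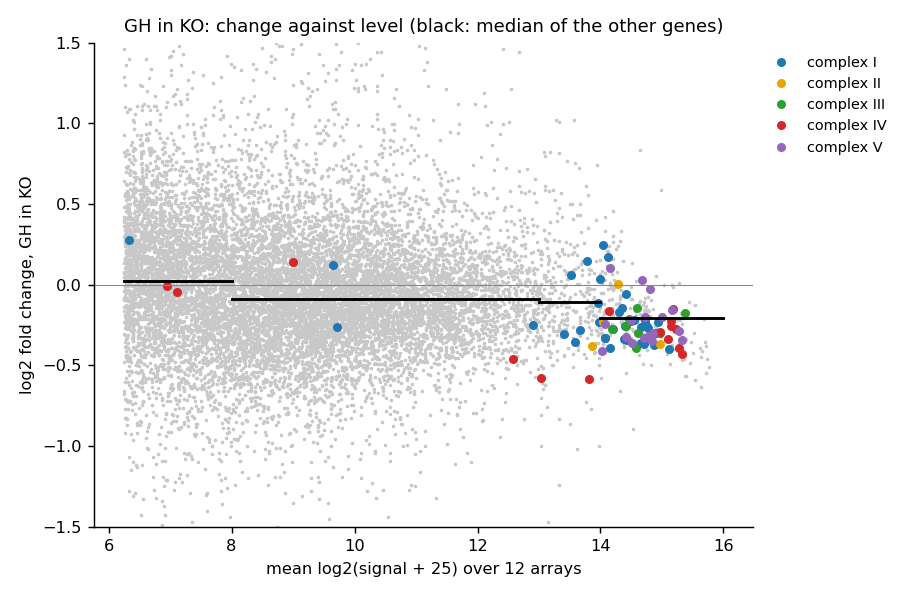
Log2 fold change with GH in KO against mean log2(signal + 25) for all genes kept (grey) and for the respiratory chain subunits (coloured by complex), with the median of the other genes in each level class as a black line. The vertical axis is cut, so genes with larger changes are not shown. The subunits lie mostly at levels above 13, where the other genes also have medians of -0.11 and -0.21.

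In complex I, subunits of the electron-carrying core and of its outer shell fell. Ndufa8 had signals of 20574, 20351 and 20524 in KO and of 15625, 15416 and 15712 in KO+GH. The 2 groups were far apart relative to their spread, and Ndufa8 fell by 0.39 ± 0.0787 (log2; limma adjusted p = 0.00226). Ndufb9, a subunit of the membrane arm, had 39750, 39430 and 43124 in KO and 30372, 30698 and 31774 in KO+GH, and it fell by 0.40 ± 0.0949 (adjusted p = 0.0072). Ndufa4, placed here by its symbol, had 32921, 31328 and 35765 in KO and 25607, 25273 and 26286 in KO+GH. It fell by 0.37 ± 0.093 (adjusted p = 0.00937). These 3 were past the threshold under all 23 alternatives run. The other 9 that fell were the core subunits Ndufs1, Ndufs3 and Ndufv1 and the supernumerary subunits Ndufa3, Ndufab1, Ndufb6, Ndufb11, Ndufc1 and Ndufs5, with log2 changes from -0.37 to -0.22.

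In complex II, which also belongs to the tricarboxylic acid cycle, Sdhb had signals of 33564, 33926 and 40800 in KO and of 27218, 27672 and 28832 in KO+GH. It fell by 0.37 ± 0.11 (log2; limma adjusted p = 0.025). Sdhd had 16883, 15371 and 20657 in KO and 13122, 13081 and 14234 in KO+GH, and it fell by 0.38 ± 0.115 (adjusted p = 0.0264). KO array 3 was the highest in both genes, and the groups did not overlap. A second bright probe set of Sdhd had a change of 0.77, opposite in sign.

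In complex III, Uqcrq, a small subunit, had signals of 27437, 27136 and 29769 in KO and of 21361, 21053 and 21765 in KO+GH, and it fell by 0.39 ± 0.1 (log2; limma adjusted p = 0.0105). Of its 4 bright probe sets 2 had the same sign. Uqcrfs1 had 27100, 26093 and 28377 in KO and 21778, 22098 and 22458 in KO+GH, and it fell by 0.30 ± 0.0877 (adjusted p = 0.0228). Uqcrc1, a core protein, fell by 0.30 ± 0.0999 (adjusted p = 0.0425). All 8 complex III genes were below 0, and 7 of them had separate groups.

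In complex IV, Cox7a2l had signals of 6976, 6581 and 7769 in KO and of 5049, 5335 and 5065 in KO+GH. It fell by 0.46 ± 0.0943 (log2; limma adjusted p = 0.00266), although its other bright probe sets ran up to 0.08. Cox6c, a nuclear subunit of the complex, had 43933, 44839 and 50952 in KO and 33776, 34301 and 35462 in KO+GH, and it fell by 0.43 ± 0.1 (adjusted p = 0.00612). Cox6a1 had 18716, 17913 and 15457 in KO and 11572, 11477 and 11556 in KO+GH, and it fell by 0.58 ± 0.164 (adjusted p = 0.0188). The KO+GH signals of Cox6a1 lay much closer together than those in KO, and the groups did not overlap. Cox4i1, Cox5a, Cox8a and Cox8b also fell.

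In complex V the 8 that fell came from the catalytic head, the stalks and the membrane part with its ring. Atp5h, subunit d of the outer stalk, had signals of 26457, 24794 and 28085 in KO and of 20531, 20246 and 20823 in KO+GH, and it fell by 0.36 ± 0.095 (log2; limma adjusted p = 0.0121). Its other bright probe set, with a mean signal of 22730 against 23640, had 0.09, opposite in sign. Atp5l, subunit g of the membrane part, had 24621, 25098 and 26029 in KO and 20195, 19814 and 20492 in KO+GH, and it fell by 0.32 ± 0.0878 (adjusted p = 0.0146). Atp5d, the delta subunit of the central stalk, fell by 0.35 ± 0.0938 (adjusted p = 0.0147). Atp5a1, which forms the head with Atp5b, also fell, as did Atp5o, Atp5mpl and the ring genes Atp5g1 and Atp5g2. Atp5b itself had -0.20 and did not pass.

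Probe sets of the same gene did not always move alike. Of the 32 subunits that fell with GH in KO, 12 had 1 bright probe set and 20 had several. In 10 of these 20 all bright probe sets had the same sign, and in the other 10 the signs were mixed. The mixed ones were Atp5g1, Atp5h, Atp5o, Cox5a, Cox6c, Cox7a2l, Ndufa3, Ndufb6, Sdhd and Uqcrq. Bright here means only above the filter, so these cases differ in weight. The probe set of opposite sign had a mean signal of 88.4 in Atp5g1 and of 22730 in Atp5h. When every gene was read as the mean of all its probe sets, 18 subunits were lower, and 15 of them were among the 32.

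The promoters are shown for 1 gene per complex because subunits of every complex fell with GH in KO, and because STAT5 and several mitochondrial regulators are DNA-binding factors. Each is the gene with the smallest p for GH in KO in its complex among those with a single start in the RefSeq table used. Uqcrq of complex III had a smaller p than Uqcrfs1 but no window in that table. The windows run from 250 bases before to 50 after the annotated start in the RefSeq table of build GRCm38.p6. Capitals mark a match, on either strand, to 1 of 5 motifs: NRF1, GABPA (CCGGAAG), ERRA (TCAAGGTCA), YY1 (AAGATGG) and STAT5 (TTCNNNGAA), where N is any base.
Ndufa8, complex I, chr2:36049289-36049588, minus strand: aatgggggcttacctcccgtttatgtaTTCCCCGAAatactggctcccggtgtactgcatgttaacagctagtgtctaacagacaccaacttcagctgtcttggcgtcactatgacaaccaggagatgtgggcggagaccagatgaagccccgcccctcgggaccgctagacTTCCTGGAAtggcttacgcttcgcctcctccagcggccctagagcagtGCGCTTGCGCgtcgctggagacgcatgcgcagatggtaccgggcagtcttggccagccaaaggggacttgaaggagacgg
Sdhb, complex II, chr4:140961021-140961320, plus strand: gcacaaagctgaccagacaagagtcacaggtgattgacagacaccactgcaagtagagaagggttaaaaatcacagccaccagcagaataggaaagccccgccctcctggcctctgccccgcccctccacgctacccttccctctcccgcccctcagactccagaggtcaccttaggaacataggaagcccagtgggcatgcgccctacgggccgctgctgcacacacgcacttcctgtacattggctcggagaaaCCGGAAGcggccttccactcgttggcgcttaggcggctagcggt
Uqcrfs1, complex III, chr13:30545267-30545566, minus strand: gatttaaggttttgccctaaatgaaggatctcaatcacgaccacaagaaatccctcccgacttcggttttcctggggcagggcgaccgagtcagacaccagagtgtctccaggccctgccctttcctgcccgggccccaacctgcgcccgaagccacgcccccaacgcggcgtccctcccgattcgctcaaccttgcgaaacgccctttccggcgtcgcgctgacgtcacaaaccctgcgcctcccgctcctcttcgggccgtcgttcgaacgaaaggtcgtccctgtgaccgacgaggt
Cox7a2l, complex IV, chr17:83514284-83514583, minus strand: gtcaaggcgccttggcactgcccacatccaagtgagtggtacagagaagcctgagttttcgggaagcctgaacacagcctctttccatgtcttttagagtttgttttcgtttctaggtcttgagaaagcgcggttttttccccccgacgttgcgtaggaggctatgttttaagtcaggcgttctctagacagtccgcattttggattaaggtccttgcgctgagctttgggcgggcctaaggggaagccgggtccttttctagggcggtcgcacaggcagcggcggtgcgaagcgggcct
Atp5h, complex V, chr11:115419870-115420169, minus strand: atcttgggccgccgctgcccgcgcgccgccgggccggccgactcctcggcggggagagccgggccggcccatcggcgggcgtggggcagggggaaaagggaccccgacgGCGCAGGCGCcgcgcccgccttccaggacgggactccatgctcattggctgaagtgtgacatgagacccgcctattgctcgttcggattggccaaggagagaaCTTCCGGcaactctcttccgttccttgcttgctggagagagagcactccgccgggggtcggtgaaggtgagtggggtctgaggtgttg

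In these letters Ndufa8 held an NRF1 match 30 bases before its start and STAT5 matches 223 and 78 bases before it. Atp5h held an NRF1 match 141 bases and a GABPA match 38 bases before its start, and Sdhb a GABPA match 6 bases after it. The windows of Uqcrfs1 and Cox7a2l held none of the 5.

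The table had windows for 67 of the 82 subunit genes. The NRF1 motif, bound by a factor known to drive nuclear genes of mitochondria, was in 22.4% of them and in 5.19% of all 27025 genes of the table. GABPA was in 25.4% against 9.93%, YY1 in 14.9% against 7.28%, and ERRA in 2.99% against 0.466%. The STAT5 motif was in 7.46% of the subunit genes and in 9.55% of all genes. The 5 subunit genes with a STAT5 match were Atp5d, Atp5o, Atp5pb, Ndufa8 and Ndufb6. The subunit windows were richer in G and C, with a median of 58.5% against 52.7%, and the motifs for NRF1 and GABPA are themselves rich in G and C. A match is a run of letters, and binding was not measured.

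Of the 3 pairs of complex IV subunits with a striated muscle form, 1 had both forms past the threshold with GH in KO, 1 had only the widely expressed form and 1 had neither. Cox6a2, Cox7a1 and Cox8b are the striated muscle forms, and Cox6a1, Cox7a2 and Cox8a the widely expressed ones. With GH in KO, Cox6a2 had -0.15 ± 0.104 (log2; limma adjusted p = 0.327) while Cox6a1 fell by 0.58. After quantile normalization Cox6a2 turned to 0.18 and passed (adjusted p = 0.0247). Cox8b fell by 0.39 ± 0.118 (adjusted p = 0.0256) and Cox8a by 0.58 ± 0.173 (adjusted p = 0.0258). Cox7a1 had -0.16 ± 0.141 (adjusted p = 0.435) and Cox7a2 -0.25 ± 0.0905 (adjusted p = 0.0538). The difference between the forms was not tested.

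The difference Cox6a2 minus Cox6a1, in log2 units, was 1.06 ± 0.29 (SD, n = 3) in WT, 1.23 ± 0.22 in KO, 1.56 ± 0.11 in WT+GH and 1.67 ± 0.05 in KO+GH. Only its change between groups can be read, since probe sets of different genes are not on 1 scale. Cox7a1 minus Cox7a2 was -1.13 ± 0.24, -0.99 ± 0.24, -0.97 ± 0.11 and -0.90 ± 0.01 in the same order. Cox8b minus Cox8a was 2.24 ± 0.28, 2.12 ± 0.37, 2.27 ± 0.03 and 2.31 ± 0.03. In neither of these last pairs did a group mean differ from that of WT by more than the SD in WT.

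Cox6a1 also shows how far WT array 1 stood apart. Its WT signals were 11521, 20306 and 20266, and its WT+GH signals 13344, 11888 and 12113. The first WT array lay below all WT+GH arrays and the other WT arrays far above them, and the change of -0.43 ± 0.164 did not pass (log2; limma adjusted p = 0.0812). Cox8a had 6400, 10589 and 11455 in WT, with the same array low.

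**Figure D4:**
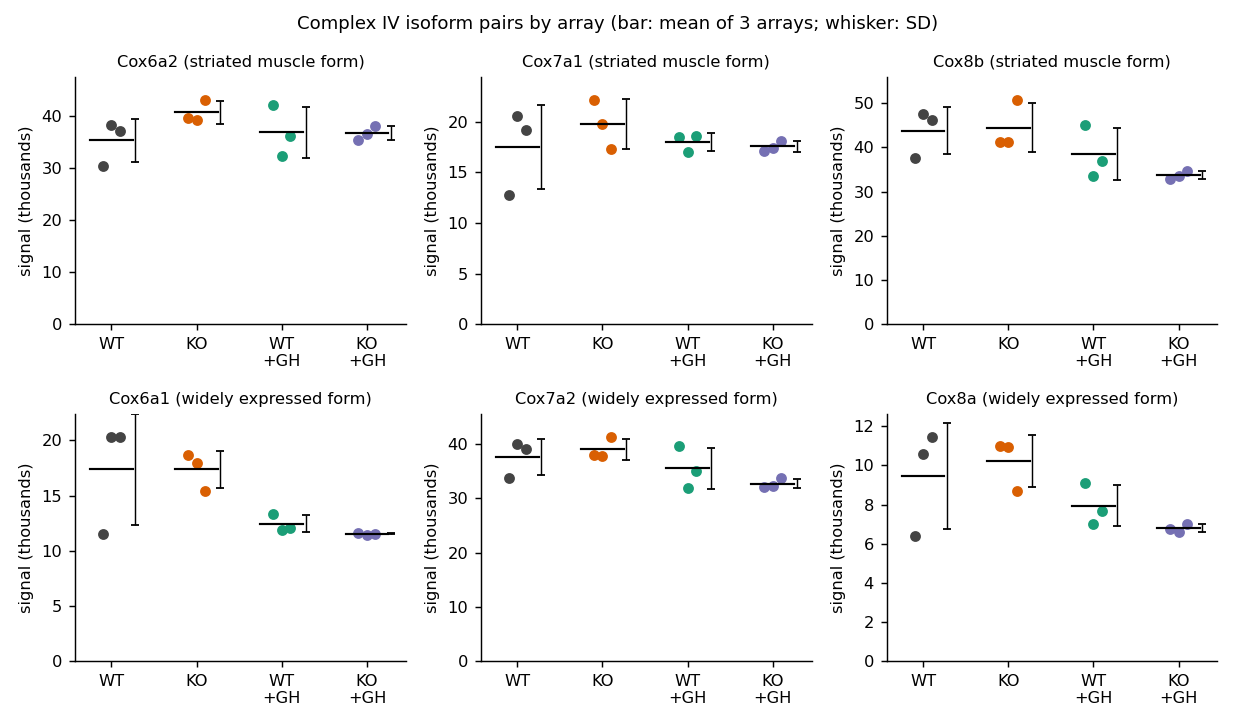
Signal of the striated muscle form and of the widely expressed form of Cox6a, Cox7a and Cox8 on each array, with points for arrays and bars for group means, on linear axes from 0. Cox6a1 and Cox8a are lower in KO+GH than in KO, and WT array 1 is the lowest of its group for all 6 genes.

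Forms known from other tissues or states did not pass the threshold in the analysis as reported. Cox4i2, the lung form of Cox4, had signals between 66.3 and 183 on the 12 arrays and a change of -0.04 ± 0.285 with GH in KO (limma adjusted p = 0.932), while Cox4i1 fell by 0.29 ± 0.0861 (adjusted p = 0.0217). Ndufa4l2, a relative of Ndufa4 known as induced by low oxygen, had signals between 594 and 1155 and a change of 0.12 ± 0.198 (adjusted p = 0.698). Its KO signals were 627, 623 and 1155, and without KO array 3 and WT array 1 the change of Ndufa4l2 was 0.41 (adjusted p = 0.0102). The 3 genes for the identical ring subunit c changed by similar amounts: Atp5g1 fell by 0.30 (adjusted p = 0.0354), Atp5g2 fell by 0.24 (adjusted p = 0.0444), and Atp5g3 had -0.28 (adjusted p = 0.0538). Cox6b1, whose relative Cox6b2 did not pass the filter, had -0.23 ± 0.0989 (adjusted p = 0.112).

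The response to GH was not shown to differ between the genotypes for any subunit. For the interaction, the change with GH in KO minus that in WT, limma called 0 of 80 higher and 0 lower, against 0.624% and 0.308% of all genes, and 2 subunits had an unadjusted p under 0.05. These were Cox7c (-0.74 ± 0.287, adjusted p = 0.356) and Ndufs5 (-0.33 ± 0.136, adjusted p = 0.405). The median was -0.16, with 68 of 80 below 0, and each interaction had a median standard error of 0.14. By complex the medians were -0.13 for I, -0.15 for II, -0.18 for III, -0.18 for IV and -0.15 for V, and -0.02 for the assembly factors. Without WT array 1 and KO array 3 the median over the subunits was -0.04. Of the 4 subunits that fell with GH in WT, 3 also fell with GH in KO: Cox7a2l, Ndufa4 and Ndufa8. So 32 calls in KO and 4 in WT do not show a larger response in KO.

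In the complexes the smallest p for the interaction belonged, beside Cox7c and Ndufs5, to Sdhb at -0.25 ± 0.155 (limma adjusted p = 0.629), Uqcrq at -0.21 ± 0.142 (adjusted p = 0.651) and Atp5h at -0.24 ± 0.134 (adjusted p = 0.572). For Ndufs5 the signals were 10456, 13508 and 13869 in WT and 13163, 11563 and 12193 in WT+GH, so the groups overlapped. In KO they were 14128, 13635 and 13905, and in KO+GH 10968, 10493 and 11123, and these groups were separate.

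The assembly factors named with the subunits help to build complexes I and II without staying in them. Of 12, 2 fell with GH in WT, against 11.8% of all genes. In KO 4 fell with GH, against 15.4% of all genes, and 1 rose, against 8.93%. Sdhaf2, which attaches FAD to Sdha, had signals of 2645, 2420 and 2443 in WT, 2406, 2326 and 2763 in KO, 1837, 1833 and 1812 in WT+GH, and 1582, 1769 and 1441 in KO+GH. Every array with GH lay below every array without it. Sdhaf2 fell by 0.45 ± 0.0905 in WT (log2; limma adjusted p = 0.00316) and by 0.64 ± 0.0905 in KO (adjusted p = 0.000158). Ndufaf1, which helps to assemble complex I, fell by 0.39 ± 0.0955 in WT (adjusted p = 0.011) and had -0.21 in KO, where it did not pass. In KO, Ndufaf3, Sdhaf1 and Sdhaf4 fell as well. Ndufaf2 rose by 0.54 ± 0.185 in KO (adjusted p = 0.0459), from 401, 404 and 410 to 696, 589 and 524. In both comparisons of genotypes limma called 0 of the 12, and 1 had an unadjusted p under 0.05 in each. Of all genes 0.774% were called higher and 0.68% lower without GH, and 2.42% and 2.11% with GH.

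A wider list of 45 assembly factors of all 5 complexes, with 43 kept, had 1 higher and 6 lower with GH in WT (median -0.13) and 2 higher and 11 lower with GH in KO (median -0.18), beside the same shares of all genes. limma called 0 in the comparisons of genotypes and in the interaction, where 3 (without GH), 5 (with GH) and 1 had an unadjusted p under 0.05. The shares of all genes called higher and lower there were 0.774% and 0.68% without GH and 2.42% and 2.11% with GH. For the interaction they were 0.624% and 0.308%. Atpaf2, a chaperone of the ATP synthase, fell by 0.50 in WT and by 0.62 ± 0.0798 in KO (log2; limma adjusted p = 6.45e-05). Sco2, a copper chaperone of complex IV, fell by 0.44 in KO. Acad9, needed for complex I assembly, fell by 0.69 in WT, and Timmdc1, also a complex I assembly factor, rose by 0.83 there.

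Electron carriers and the cycle that feeds the chain were read beside the 11.8% of all genes that fell with GH in WT and the 15.4% that fell with GH in KO. Of 18 genes for cytochrome c, coenzyme Q synthesis and electron transfer flavoproteins, 1 rose and 6 fell with GH in KO (median -0.13), and 1 fell with GH in WT. Cycs, cytochrome c, fell by 0.50 ± 0.0991 in KO (log2; limma adjusted p = 0.00226). Etfa, a subunit of the electron transfer flavoprotein, fell by 0.41 there. Of 13 genes of the tricarboxylic acid cycle, 1 rose and 3 fell with GH in KO (median -0.11), and 2 fell with GH in WT. Idh3a, a subunit of the NAD-dependent isocitrate dehydrogenase, fell by 0.24 in WT and by 0.33 in KO. Ogdh, a subunit of the oxoglutarate dehydrogenase, rose by 0.26 in KO. In both comparisons of genotypes limma called 0 of the 18 and 0 of the 13. Of all genes 0.774% were called higher and 0.68% lower without GH, and 2.42% and 2.11% with GH. An unadjusted p under 0.05 belonged to 2 carriers and 1 cycle gene without GH, and to 1 and 0 with GH.

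Of 16 regulators of mitochondrial genes, 1 was higher and 2 were lower in KO+GH against WT+GH, with a list median of 0.03, where 2.42% of all genes were higher and 2.11% lower. Ppargc1b rose by 0.60 ± 0.105 in KO+GH against WT+GH (log2; limma adjusted p = 0.00262), Ppara fell by 0.98 ± 0.171 (adjusted p = 0.00267) and Ppargc1a fell by 0.88 ± 0.182 (adjusted p = 0.00969). Ppargc1a and Ppargc1b are coactivators of mitochondrial genes and Ppara is a nuclear receptor for fatty acids. With GH in WT, 4 rose and 2 fell, against 7.33% and 11.8% of all genes: Ppara rose by 1.13, Polrmt, the mitochondrial RNA polymerase, rose by 0.38, and Ppargc1b fell by 1.01. With GH in KO, 2 rose and 2 fell, against 8.93% and 15.4%: Ppard rose by 0.56, Polrmt rose by 0.31, and Ppargc1b fell by 0.61. In KO against WT without GH and in the interaction limma called 0 of 16, and 3 had an unadjusted p under 0.05 in each. Of all genes 0.774% were called higher and 0.68% lower in the first, and 0.624% and 0.308% in the interaction. In KO+GH against WT+GH the subunits had a median of -0.09, with 66 of 80 below 0 and 0 called. A link between these regulators and the subunits was not tested.

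The number of subunits that fell with GH in KO moved with the choices of processing. It was 7 after median centring, 19 after quantile normalization, 13 with a plain empirical Bayes fit and 54 when only KO and KO+GH entered the fit. It was 46 without WT array 1 and 43 without WT+GH array 1, neither of which is in the comparison but which set the pooled spread. Without KO array 3 it was 16, and without KO+GH arrays 1, 2 or 3 it was 10, 8 and 12. The median over the subunits stayed between -0.28 and -0.23 when any 1 array was left out, and it was -0.08 after quantile normalization, when 5 subunits were also called higher.

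**Figure D5:**
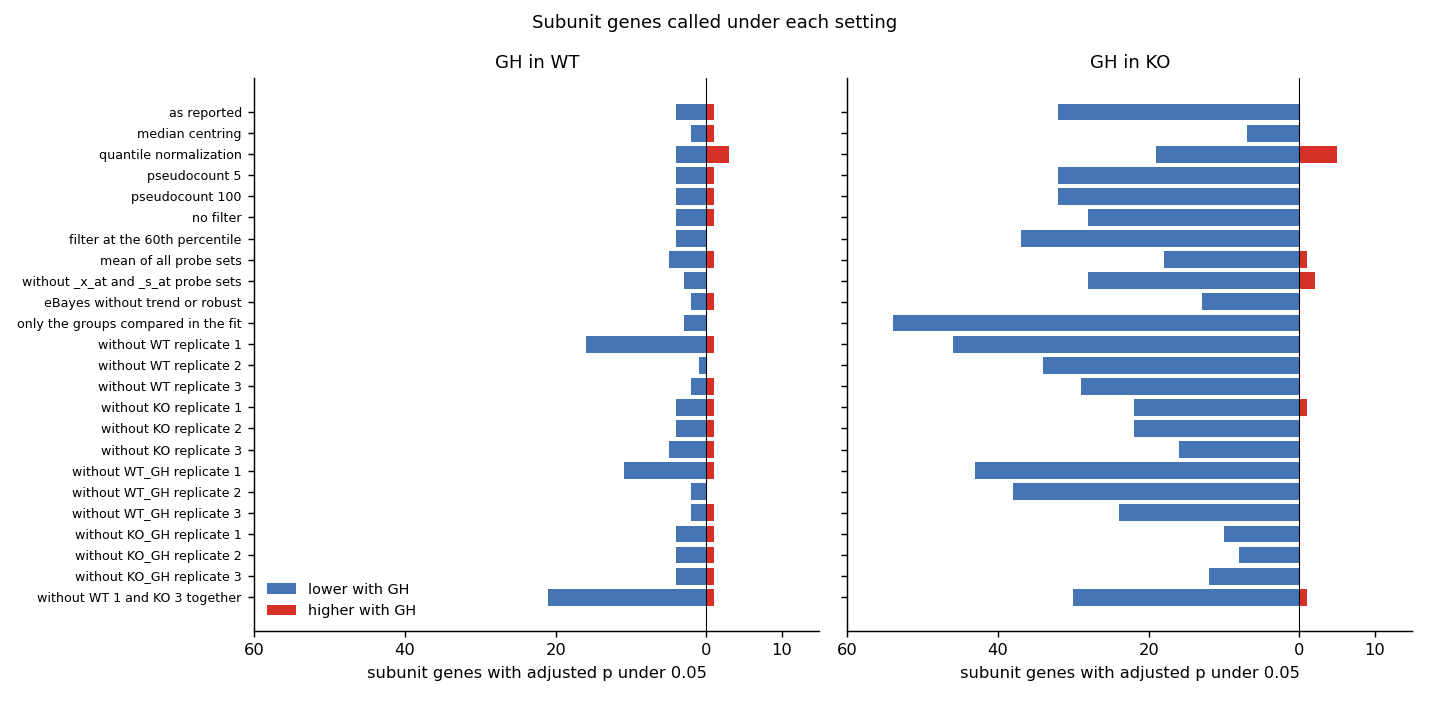
Number of the 80 subunits called lower with GH in KO and with GH in WT under the analysis as reported and each alternative, as bars from 0. With GH in KO the bars run from 7 to 54, around the 32 reported. Shares of all genes are not drawn.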

How the data were processed

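Total RNA from 12 mice, biotin-labelled, was hybridized to 1-colour Affymetrix arrays, 1 per mouse. The deposited values are MAS5 signals, a linear intensity, per the submitters' processing notes. The MAS5 version and settings, detection calls and the genome build are not given in the sources used here. On each array the mean without the lowest and highest 2% of probe sets was 500, so the deposited intensity had been scaled by array.

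Values were taken as log2(signal + 25). The 64 control probe sets, 932 with several symbols and 9160 with none were left out, and the remaining 34945 gave 18193 genes. Genes whose brightest probe set had a mean over 6.25 on the log2 scale, the 40th percentile of all probe sets, were kept, 12654 in all. limma 3.58.1 (R 4.3.3, statmod 1.5.0) fitted 1 mean per group over all 12 arrays with 8 residual degrees of freedom and eBayes with trend and robust settings. The 2-sided p-values of 5 comparisons were adjusted by Benjamini-Hochberg over the 12654 genes, and the threshold was 0.05. "Rose" and "fell" mean past that threshold. After ± stands a standard error for a log2 change and an SD for a level or a signal. Median centring subtracted each array's median over the genes kept. A gene's bright probe sets are those above the same filter. The fit was tested on simulated data with independent noise for each gene. Shifts shared by many genes on a single array were not simulated, so the test does not cover them. The 3 arrays per group limit the precision.

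Genes named were, per comparison and complex, up to 3 with the smallest p past the threshold in each direction, or the 1 with the smallest p; also all isoform pairs, up to 3 genes per pathway list and up to 2 per marker list. The members, lists and tests were chosen with earlier results of these data known. Alternatives covered scaling, pseudocount, filter, probe sets, the fit and single arrays. Promoter windows came from a RefSeq table of build GRCm38.p6, matched by symbol.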

Additional observations from a re-analysis of the deposited data

How the results depend on the processing

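No paired analysis was possible because each array has an animal number of its own and nothing links animals across groups. Pseudocounts of 5 and 100, no filter and a filter at the 60th percentile left the counts called lower with GH within 1.5 times of those reported. The cause of the following shifts was not tested. For these alternatives the share of all genes called is given only for median centring.

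Subunits lower with GH in KO (32 reported) numbered 7 after median centring, 19 after quantile normalization, 18 over the mean of all probe sets, 13 without trend or robust settings and 54 with only the compared groups in the fit. With single arrays left out they ran from 8 to 46. Those higher (0 reported) numbered 5 after quantile normalization, 1 over all probe sets, 2 without probe sets that match several transcripts (suffix _x_at or _s_at), 1 without WT array 1 and KO array 3, and 0 to 1 with single arrays left out. Subunits lower with GH in WT (4 reported) numbered 2 after centring and also without trend or robust settings, 21 without WT array 1 and KO array 3, and 1 to 16 with single arrays left out. Those higher (1 reported) numbered 3 after quantile normalization, 0 under the 60th percentile filter, without the several-transcript probe sets or with only the compared groups, and 0 to 1 with single arrays left out. In KO against WT with GH, quantile normalization called 1 higher (Cox6a2) and the mean of all probe sets 2 lower (Sdhc and Uqcr10).

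Median log2 changes moved as follows. With GH in KO, quantile normalization gave -0.0821 over all subunits and -0.0811, -0.151, -0.0874, -0.0781 and -0.0692 for complexes I to V, and the mean of all probe sets -0.0784 for II and -0.162 for IV. With GH in WT, the mean of all probe sets gave 0.0167 for II and quantile normalization 0.0272 for IV, and with single arrays left out the range was -0.254 to -0.0201 for II and -0.214 to -0.024 for IV. In KO against WT without GH, leaving out WT array 1 and KO array 3 gave -0.0623 for IV and -0.0905 for V. In KO against WT with GH, complex II ran from -0.149 to 0.0365 with single arrays left out. For the interaction, quantile normalization gave -0.0555 over all subunits and -0.0697, -0.0369 and -0.0266 for III, IV and V. Leaving out WT array 1 and KO array 3 gave -0.0363 over all subunits and -0.052, -0.0558 and -0.00397 for III, IV and V. Complex II gave -0.271 over all probe sets and -0.23 to -0.0368 with single arrays left out.

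Of the genes named, 5 changed sign where the reported or the alternative value passed the threshold. Over all probe sets Sdhc was 0.0706 with GH in WT and Sdhd 0.194 with GH in KO. Without the several-transcript probe sets Uqcrq was 0.221 and Cox7a2l 0.0665 with GH in KO. After quantile normalization Cox6a2 was 0.177 with GH in KO (limma adjusted p = 0.0247).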

Other observations

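The 10 probe sets with several symbols gave values that belong to no single gene. With GH in KO they ran from -0.31 for a probe set shared by Ndufb4 and its copies Ndufb4b and Ndufb4c to 0.16 for one shared by Ndufs6 and Ndufs6b. The probe set of Ndufb4 alone had 0.28 with GH in KO, opposite in sign to the shared one, and its signal was near the filter. For Ndufs5, whose probe set had -0.35, the probe set shared with its pseudogene had 0.02.

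The MAS5 values of several subunits depended on which probe set was read. Atp5o had -0.32 with GH in KO on its brightest probe set and 1.12 on its other bright one. Uqcr10 had -0.27 and, on another, -2.02. These genes were chosen after their values were seen.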
